A study of Mus musculus with 4 samples.

Results

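HOX cluster genes encode homeodomain transcription factors, and their transcripts were followed here in embryonic mouse ureters cultured while WNT secretion was blocked. The members are all genes of the array whose name is Hox followed by a cluster letter (a to d) and a number, and there were 39 of them, with 45 probes, among 29924 gene names. Of these 39 genes, 35 lay well above background on all 4 arrays in control or in treated ureters and were tested. Ureters of wildtype NMRI embryos without any engineered allele were dissected at E12.5 and kept for 18 h on transwell membranes in medium with 10 µM IWP-2 or with the solvent DMSO. Sex was not determined. IWP-2 inhibits Porcupine, the enzyme that lipidates WNT ligands for secretion, and it acts on every cell of the explant, so that no cell type is singled out by the treatment. On each of 4 two-colour Agilent arrays RNA of pooled treated ureters was set against RNA of pooled control ureters, with the treated RNA in red on arrays 1 and 3 and in green on arrays 2 and 4. All values below are log2 ratios of IWP-2 over control within an array, given as the mean ± SD of the 4 arrays unless stated otherwise, and the p-values measure the spread between these arrays only. The study's methods count 4 pools per group at this stage while a legend of its speaks of fewer, so some arrays may be dye swaps of the same RNA, and the spread may then be technical in part.

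Mammalian HOX genes lie in 4 clusters, Hoxa to Hoxd, and genes of the same number in different clusters are paralogues. Within a cluster the genes with low numbers are active early and towards the head, and those with high numbers late and towards the tail, an order known as collinearity. In the urogenital tract the HOX11 paralogues act with Six2 and Eya1 in kidney induction, Hoxa10, Hoxa11 and Hoxa13 pattern the genital ducts, and Hoxa13 and Hoxd13 shape the caudal end of the gut, bladder and external genitalia. WNT signals, with retinoic acid and the Cdx factors, are known inputs to HOX transcription in the posterior embryo.

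The 250 bases before the start site of 4 members are shown first because these genes mark the contrast described below: Hoxd12, Hoxd13 and Hoxa13 had the largest falls, and Hoxa11 is the neighbour of Hoxa13 that rose. The sequences are those of RefSeq on GRCm38.p6, 5′ to 3′ on the strand of the gene. Capitals mark forms of the core that TCF/LEF factors, the nuclear partners of β-catenin, bind: CTTTGNN, where each N is A or T, was searched on both strands, and no other motif was searched that could overlap it. The windows lie at chr2:74674763-74675012 on the plus strand (Hoxd12), chr2:74667975-74668224 on the plus strand (Hoxd13), chr6:52260881-52261130 on the minus strand (Hoxa13) and chr6:52245811-52246060 on the minus strand (Hoxa11).
Hoxd12: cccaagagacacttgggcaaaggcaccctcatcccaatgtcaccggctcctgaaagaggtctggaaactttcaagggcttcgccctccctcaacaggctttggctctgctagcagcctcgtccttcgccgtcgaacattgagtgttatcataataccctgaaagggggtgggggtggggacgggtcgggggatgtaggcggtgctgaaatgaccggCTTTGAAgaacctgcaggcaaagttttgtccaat
Hoxd13: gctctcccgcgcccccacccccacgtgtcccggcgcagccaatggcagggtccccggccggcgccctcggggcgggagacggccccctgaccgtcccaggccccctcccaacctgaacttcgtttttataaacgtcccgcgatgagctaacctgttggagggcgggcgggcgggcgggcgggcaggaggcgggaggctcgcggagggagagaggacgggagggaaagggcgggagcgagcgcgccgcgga
Hoxa13: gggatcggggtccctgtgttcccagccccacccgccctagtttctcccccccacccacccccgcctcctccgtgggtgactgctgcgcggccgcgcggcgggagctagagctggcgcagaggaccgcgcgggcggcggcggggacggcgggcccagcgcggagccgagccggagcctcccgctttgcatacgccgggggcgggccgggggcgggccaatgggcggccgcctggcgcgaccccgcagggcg
Hoxa11: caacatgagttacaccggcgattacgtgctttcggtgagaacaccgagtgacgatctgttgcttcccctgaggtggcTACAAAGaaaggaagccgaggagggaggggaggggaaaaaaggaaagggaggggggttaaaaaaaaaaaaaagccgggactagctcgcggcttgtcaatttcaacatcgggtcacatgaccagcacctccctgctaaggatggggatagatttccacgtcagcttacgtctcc

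In windows that ran from 250 bases before to 50 bases after a start, 22 of the 39 HOX genes had an entry. Of their 24 windows 4 held a match, or 16.7%, while 16.9% of all 32851 windows of this length did. Hoxd12 had CTTTGAA on its own strand at position -34 from the start site. Hoxd8 had CTTTGAT at both -153 and -143. Hoxd4 had CTTTGTT at base 16 of the transcript. Hoxa11 had matches on the opposite strand at -173 and at base 24, the second of which lies outside the stretch shown. Hoxd12 fell while Hoxd4, Hoxd8 and Hoxa11 rose, so a match came with either direction. A match is a string of letters and shows no binding.

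The treatment and the tissue were checked first. Axin2, a general WNT target, fell by 1.56 (SD 0.09, n = 4), with processed signals of 541 to 701 in control and 160 to 228 in treated ureters. Tbx18, which marks the ureteric mesenchyme, and 7 epithelial markers including Epcam and Cdh1 passed the background filter, with processed signals of at least 1284 for the epithelial markers. The ratios of the 35 HOX genes correlated between arrays with r from 0.63 (arrays 2 and 3) to 0.92 (arrays 1 and 4), a description across genes that share the arrays. Over these genes the median SD of the 4 arrays was 0.12, and the highest was 0.34 (Hoxa5).

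After IWP-2 HOX genes of low number rose or did not pass the test, and the falls lay among those of high number. Of the 35 tested genes 6 fell and 19 rose (limma, adjusted p under 0.05 over all genes), while 10 did not pass the test. Over all 22461 genes tested 15% were called lower, 18.1% higher and 33.1% in either direction, against 17.1% lower, 54.3% higher and 71.4% in either direction for the HOX genes. The share of HOX genes called lower was thus near that of all genes, and the share called higher was above it. All 6 falls lay in paralogue groups 10 to 13, where 6 of 9 tested genes fell and 2 rose. That boundary was drawn after the values had been seen, and in groups 9 to 13, 6 of 13 tested genes fell and 4 rose. In groups 1 to 8, 15 of 22 tested genes rose and 0 fell. The median log2 ratio was 0.30 for groups 1 to 8, with array medians of 0.32, 0.36, 0.20 and 0.30, and it was -0.09 for groups 9 to 13, with array medians of -0.06, -0.17, -0.14 and 0.04. The median over all genes tested was 0.00. The members ranged from -0.57 (Hoxd12) to 0.55 (Hoxb8). The cut-offs of the study's own filter, a brightness of 100 and 2-fold, were taken here on all 4 arrays, while its text speaks of fewer arrays for the stage, and 0 HOX genes were lower and 0 higher by them. Over all 29924 genes that filter gave 0.314% lower and 0.0702% higher, and with a limit of 1.5-fold 0.618% lower and 0.361% higher, again with 0 HOX genes.

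**Figure D1:**
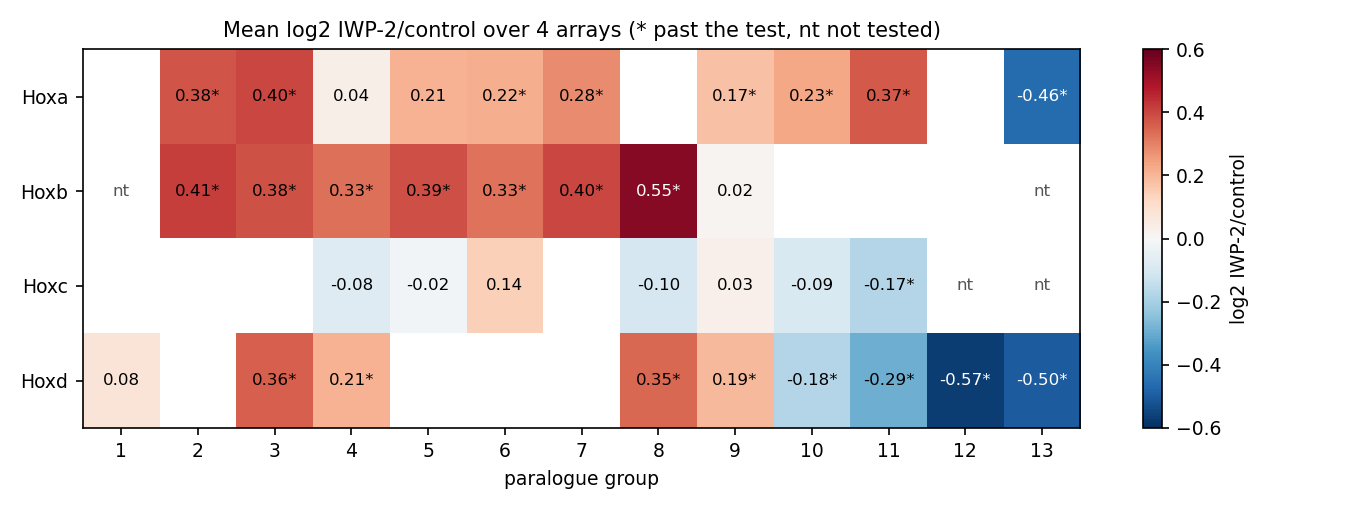
Mean log2 ratio of IWP-2 over control (colour and number) for the HOX genes reported by name, with clusters as rows and paralogue groups as columns; an asterisk marks genes past the test and nt genes that were not tested. The Hoxb row lies above 0 from Hoxb2 to Hoxb8 and stands at 0.02 at Hoxb9, which did not pass the test. The Hoxd row turns from 0.19 at Hoxd9 to -0.18 at Hoxd10, and the Hoxa row turns between Hoxa11 at 0.37 and Hoxa13 at -0.46.

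The 4 genes at the upper end of the Hoxd cluster fell together. Hoxd12, a regulator of limb and caudal patterning, had control signals of 1697, 1938, 2492 and 2307 and treated signals of 1147, 1308, 1807 and 1469 on arrays 1 to 4. It was lower on every array, with log2 ratios of -0.60, -0.55, -0.49 and -0.64, while the ranges of both groups over the 4 arrays overlapped. The mean was -0.57 ± 0.06 (95% interval -0.67 to -0.47, adjusted p = 0.00032), the largest fall among the members tested. Hoxd13, mutated in limb and urogenital malformations, had control signals of 1850, 2171, 2805 and 2377 and treated signals of 1146, 1770, 1930 and 1704. Its ratios of -0.67, -0.29, -0.55 and -0.49 gave a mean of -0.50 ± 0.16 (adjusted p = 0.00093). The fall of Hoxd13 was smallest on array 2.

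Hoxd11, which acts redundantly with Hoxa11 in the kidney, had control signals of 3440, 3371, 4233 and 3749 and treated signals of 2902, 2543, 3018 and 3681. It fell by 0.29 on average (SD 0.21, adjusted p = 0.0228), with ratios of -0.27, -0.38, -0.52 and -0.01, so that array 4 showed almost no change. A second probe of Hoxd11 gave -0.26 ± 0.11. Hoxd10 had ratios of -0.17, -0.27, -0.22 and -0.05 and a mean of -0.18 ± 0.09 (adjusted p = 0.0344). The weakest array of both genes was array 4. Without array 2 or array 3 the call of Hoxd11 was lost (log2 ratio -0.20, adjusted p = 0.0563, and -0.23, adjusted p = 0.0909), and that of Hoxd10 was lost without array 1, 2 or 3 (adjusted p = 0.0792, 0.151 and 0.118).

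The lower part of the same cluster rose. Hoxd9 had control signals of 768, 925, 1060 and 975 and treated signals of 917, 993, 1259 and 1138, which made ratios of 0.23, 0.11, 0.22 and 0.21 and a mean of 0.19 ± 0.06 (adjusted p = 0.0132). It was higher on 4 of 4 arrays, and without array 4 its call was lost (0.17, adjusted p = 0.0597). Hoxd8 rose by 0.35 ± 0.14, Hoxd4 by 0.21 ± 0.01 and Hoxd3 by 0.36 ± 0.14. Hoxd4, a retinoic acid-responsive hindbrain gene, was the most even of all members, with ratios between 0.20 and 0.21. Hoxd1 did not pass the test, with ratios of 0.04, 0.40, -0.25 and 0.12. The turn lay between Hoxd9 and Hoxd10, whose probes are 5.4 kb apart on mm9: Hoxd9 exceeded Hoxd10 by 0.37 ± 0.08, with the same sign on 4 of 4 arrays.

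The Hoxa cluster turned 1 gene before its end. Hoxa13, needed for the distal limb and the urogenital sinus, had control signals of 725, 947, 1235 and 993 and treated signals of 541, 720, 824 and 732. It was lower on every array, with ratios of -0.42, -0.39, -0.59 and -0.44 and a mean of -0.46 ± 0.09 (95% interval -0.57 to -0.35, adjusted p = 0.00093). A second probe gave -0.47 ± 0.12. Hoxa11, which patterns uterus and kidney, went the other way with control signals of 3864, 3346, 4261 and 4824 and treated signals of 5000, 4251, 5893 and 5905. Its ratios of 0.38, 0.34, 0.44 and 0.30 gave a mean of 0.37 ± 0.06 (adjusted p = 0.00121). Hoxa11 exceeded Hoxa13 by 0.83 ± 0.14 on 4 of 4 arrays, the largest difference between neighbours in any cluster, over 16.9 kb between their probes.

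Below Hoxa11 the Hoxa genes rose or did not pass the test. Hoxa10 rose by 0.23 ± 0.10 and Hoxa7 by 0.28 ± 0.16, each higher on 4 of 4 arrays. Hoxa6 (0.22 ± 0.19, adjusted p = 0.0457) and Hoxa9 (0.17 ± 0.18, adjusted p = 0.0463) passed the test narrowly and were below 0 on array 2, at -0.05 and -0.07. Both calls were lost without array 1, 3 or 4, with adjusted p of 0.142, 0.086 and 0.154 for Hoxa6 and of 0.0781, 0.165 and 0.199 for Hoxa9, and that of Hoxa10 was lost without array 1 or 4 (adjusted p = 0.0538 and 0.0512). A second probe of Hoxa9 gave 0.18 ± 0.06 and was above 0 on 4 of 4 arrays, with 0.11 on array 2. Hoxa2 and Hoxa3, which pattern the hindbrain and its neural crest, rose by 0.38 ± 0.09 and 0.40 ± 0.15. The probe of Hoxa3 overlaps by 40 bases that of Hoxaas2 on the opposite strand, which rose by 0.56 ± 0.32, and the second Hoxa3 probe gave 0.25 ± 0.22. Hoxa5 had ratios of 0.30, 0.54, -0.26 and 0.26 and did not pass the test (adjusted p = 0.143), but did without array 3 (0.35, adjusted p = 0.0184). Hoxa4 stood at 0.04 ± 0.09.

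**Figure D2:**
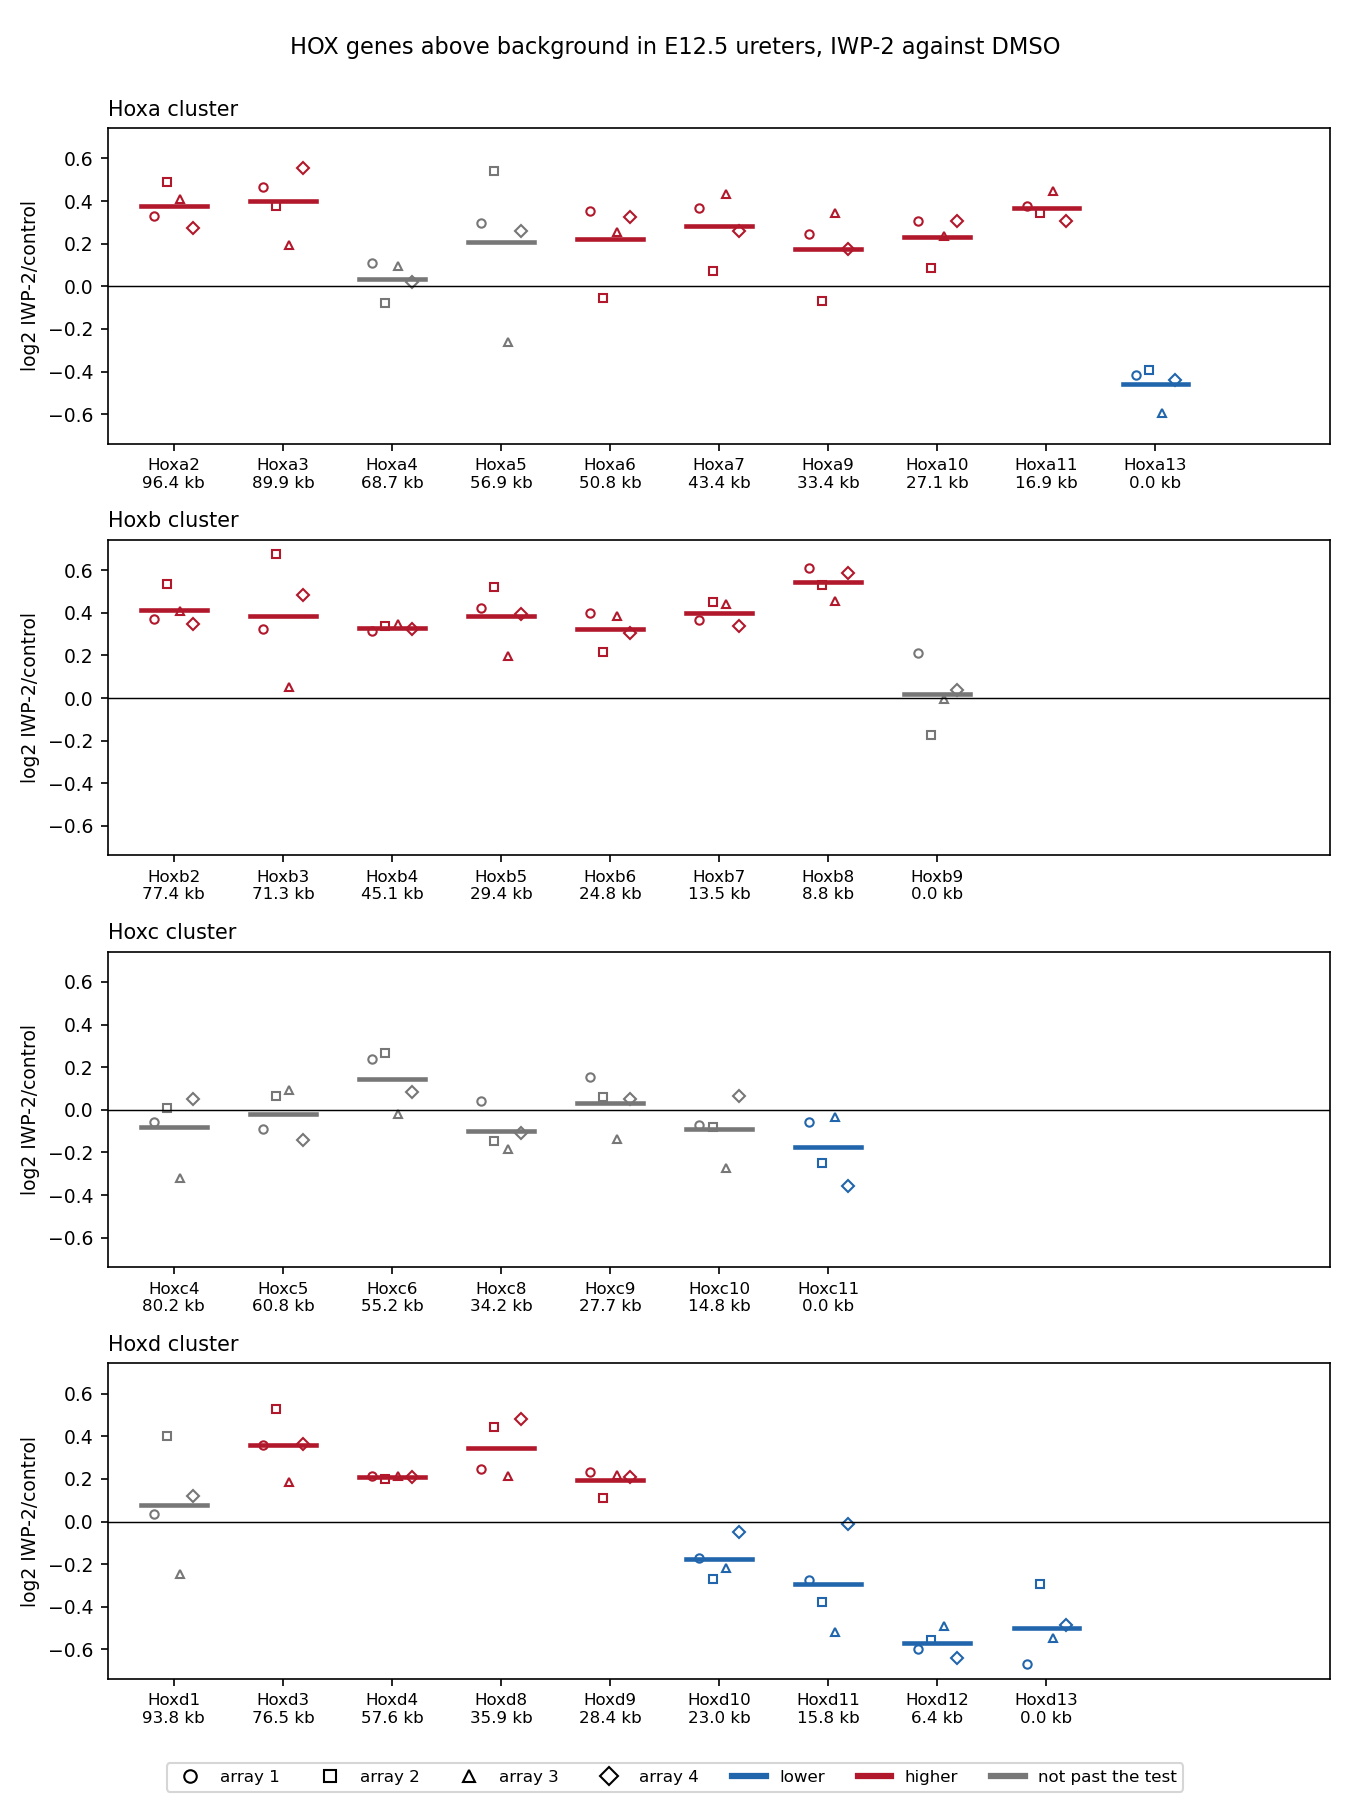
Log2 ratio of IWP-2 over control on each array (symbols) and mean of 4 arrays (bars) for the tested HOX genes reported by name, in the order of the cluster from low to high paralogue number, with the distance in kb from the probe of the last gene tested. Colours give the call: Hoxa13, Hoxc11 and Hoxd10 to Hoxd13 lie below 0 on every array, and all genes shown as higher except Hoxa6 and Hoxa9 lie above 0 on every array.

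In the Hoxb cluster all 7 tested genes from Hoxb2 to Hoxb8 passed the test upward and were higher on 4 of 4 arrays, with a median of 0.39 and array medians of 0.37, 0.52, 0.38 and 0.35. Hoxb8, a gene of the posterior trunk, had control signals of 1816, 2323, 2742 and 2270 and treated signals of 2800, 3349, 3817 and 3428. The 2 groups did not overlap, and the ratios of 0.61, 0.53, 0.45 and 0.59 gave the largest rise of any member, 0.55 ± 0.07 (95% interval 0.44 to 0.65, adjusted p = 0.000446). Hoxb7, whose promoter is widely used to drive transgenes in the nephric duct and ureteric bud epithelium, rose by 0.40 ± 0.06 with ratios of 0.37, 0.45, 0.44 and 0.34. Hoxb2 rose by 0.41 ± 0.08, Hoxb4 by 0.33 ± 0.01, Hoxb5 by 0.39 ± 0.14 and Hoxb6 by 0.33 ± 0.08. Hoxb3 rose by 0.38 with a wide SD of 0.26, and its second probe gave 0.27 ± 0.03. Hoxb9 stood at 0.02 ± 0.16, did not pass the test and was exceeded by Hoxb8 by 0.53 ± 0.13 on 4 of 4 arrays.

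In the Hoxc cluster 1 of 7 tested genes passed the test. This was Hoxc11, with ratios of -0.06, -0.25, -0.03 and -0.36 and a mean of -0.17 ± 0.16 (adjusted p = 0.0195). That call was lost without array 1, 3 or 4 (adjusted p = 0.071, 0.0636 and 0.0909). Hoxc4, Hoxc5, Hoxc6, Hoxc8, Hoxc9 and Hoxc10 stood between -0.10 and 0.14 and did not pass the test. Hoxc5 and Hoxc8 were dim, with processed signals of 15 to 26 and 14 to 29, and the offset of 50 in the background correction draws such ratios towards 0. Hoxb1, Hoxb13, Hoxc12 and Hoxc13 were not well above background on all arrays of either group and were not tested. Hoxc12 and Hoxc13 were above it on 0 arrays and Hoxb1 on 1 treated channel. Hoxb13, a gene of the tail end of the body, was above it on array 4 in control (processed signal 23.1) and on array 3 in treated ureters (34.5), with signals of 0.797 to 2.32 in the other channels.

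**Figure D3:**
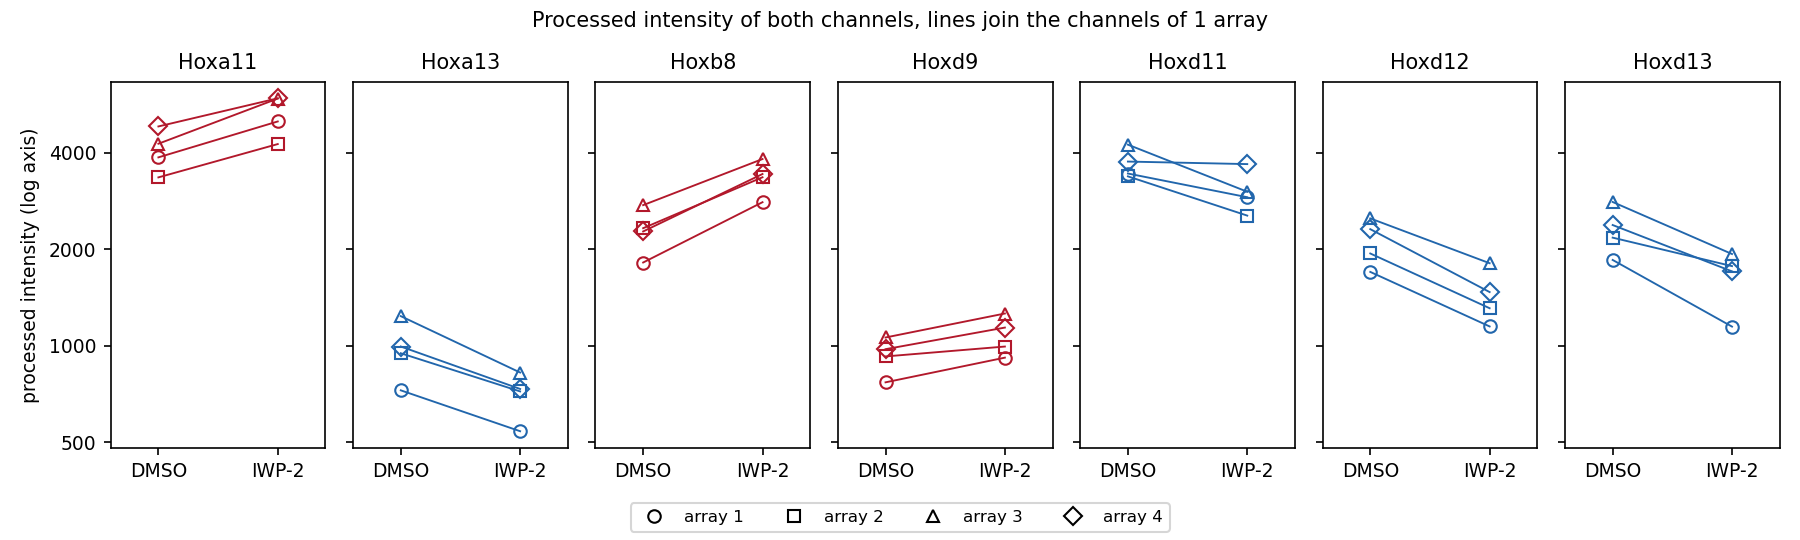
Processed intensity (log axis) of 7 HOX genes in the control (DMSO) and treated (IWP-2) channel, with a line for each of 4 arrays. Lines of Hoxd11, Hoxd12, Hoxd13 and Hoxa13 slope down and those of Hoxa11, Hoxb8 and Hoxd9 up on every array, with Hoxd11 nearly level on array 4 (3749 to 3681).

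Some paralogues of 1 group moved apart. In group 4 Hoxb4 exceeded Hoxc4 by 0.41 ± 0.18 and the difference of Hoxa4 minus Hoxd4 was -0.17 ± 0.08. Hoxb8 rose by 0.55 and Hoxd8 by 0.35, while Hoxc8 stood at -0.10, and Hoxb8 exceeded Hoxc8 by 0.64 ± 0.05. Hoxc8 and Hoxa4 were dim, with mean processed signals in control of 23.6 and 50.3, and the offset of 50 draws their ratios towards 0. In group 10 Hoxa10 exceeded Hoxd10 by 0.41 ± 0.07. In group 11 Hoxa11 exceeded Hoxd11 by 0.66 ± 0.27 and Hoxc11 by 0.54 ± 0.11. In group 13 Hoxa13 and Hoxd13 both fell, with a difference of 0.04 ± 0.16 that had the same sign on 2 of 4 arrays. The 5 genes of groups 2 and 3 rose by 0.36 to 0.41. Of 65 pairs compared, 34 of paralogues and 31 of neighbours, 26 differed in the same direction on 4 of 4 arrays. Of these 26 pairs 16 were of paralogues and 10 of neighbours. The pairs share genes, and pairs of other genes were not compared. Each of the 26 has a two-sided exact paired permutation p of 0.125, the smallest that 4 arrays allow (0.3125 after adjustment over the pairs). No pair could thus pass 0.05. Over paralogue number and log2 ratio, Spearman's rho was -0.80 in Hoxd (9 genes), -0.50 in Hoxc (7), -0.39 in Hoxa (11) and -0.19 in Hoxb (8), as a description of genes measured on the same arrays.

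Beyond Hoxa13 the transcripts at the end of the Hoxa cluster fell too, with lower ratios than Hoxa13 on 4 of 4 arrays. Hottip, the long noncoding RNA made from the tip of the cluster and known to recruit the MLL complex to the neighbouring Hoxa genes, had a probe 7.2 kb beyond that of Hoxa13. Its processed signals were 60.1, 88.7, 108.5 and 81.7 in control and 19.2, 32.2, 47.8 and 33.4 in treated ureters, with no overlap of the groups. The log2 ratios of -1.10, -1.08, -0.95 and -0.93 gave -1.01 ± 0.09 (adjusted p = 5.31e-05). The transcript 5730457N03Rik, with a probe at 49.4 kb, had ratios of -1.25, -1.57, -1.25 and -1.36 and a mean of -1.36 ± 0.15 (adjusted p = 2.21e-05). Evx1, an even-skipped homeobox gene at 59.3 kb, fell from control signals of 391, 596, 755 and 584 to treated signals of 145, 200, 260 and 169. Its ratios of -1.35, -1.51, -1.50 and -1.70 gave -1.52 ± 0.14 (adjusted p = 1.95e-05). The order of these falls depends on the background correction, since the offset of 50 draws dim ratios towards 0: from the processed signals Hottip stood at -1.38, 5730457N03Rik at -1.90 and Evx1 at -1.57, beside -0.44 for Hoxa13. Inside the cluster, 9530018H14Rik, with a probe on the strand of Hoxa13 2.74 kb downstream, fell by 0.39 ± 0.08 (adjusted p = 0.00139), while Hoxa11os stood at 0.08 ± 0.05. At the corresponding end of the Hoxd cluster Evx2, 15.7 kb beyond Hoxd13, stood at -0.04 ± 0.06 (adjusted p = 0.461) with processed signals of 61.0 to 88.7.

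**Figure D4:**
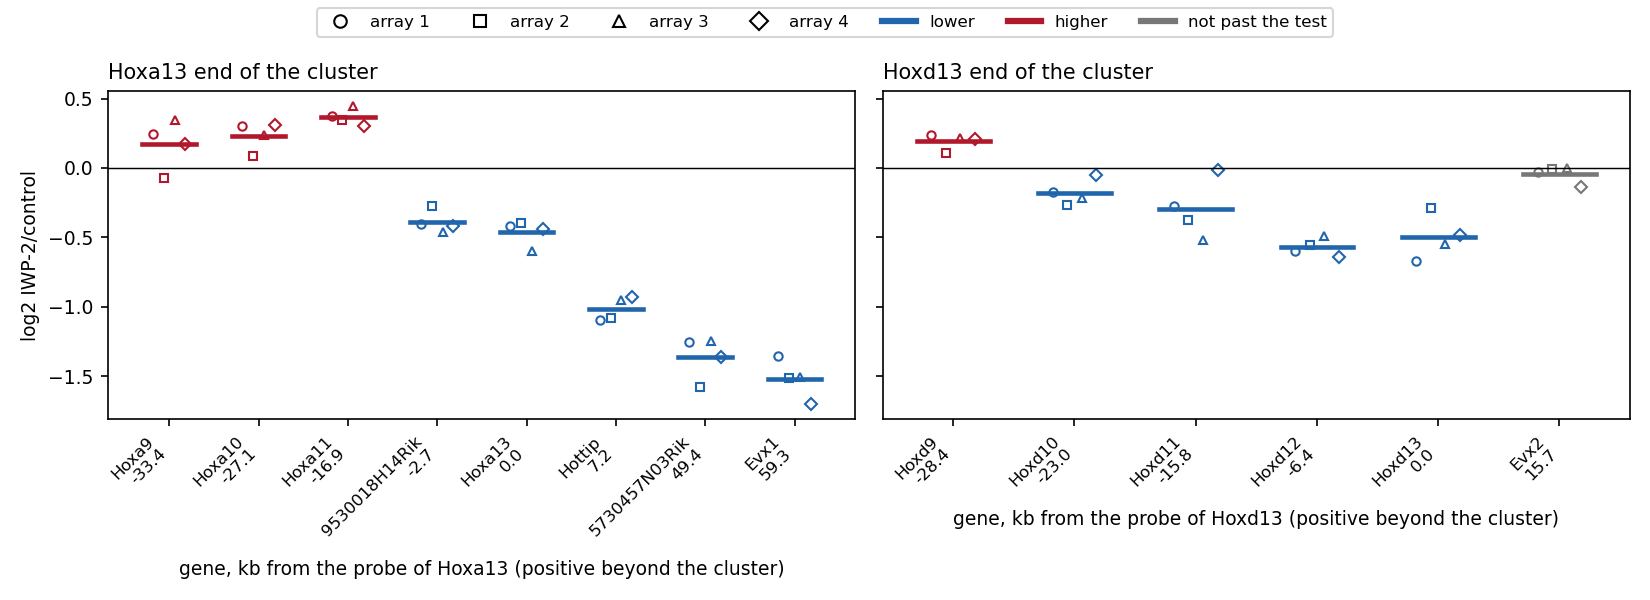
Log2 ratio of IWP-2 over control on each array (symbols) and mean (bars) for genes at the ends of the Hoxa (left) and Hoxd (right) clusters, with the distance of the probe in kb from that of Hoxa13 or Hoxd13. On the left the mean goes from 0.37 at Hoxa11 to -0.46 at Hoxa13 and -1.52 at Evx1; on the right it goes from 0.19 at Hoxd9 to -0.50 at Hoxd13 and is -0.04 at Evx2.

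Of 14 further transcripts placed between HOX genes, 12 were tested, 3 rose and 3 fell, and of 24 flanking genes, the nearest named ones on each side of a cluster, 20 were tested, 3 rose and 4 fell. The flanking genes past the test made up 35%, near the 33.1% of all genes tested, and the transcripts between HOX genes 50%. Besides Hoxaas2, Hoxb5os rose by 0.33 ± 0.17 and AI448005, between Hoxd3 and Hoxd4, by 0.28 ± 0.06. LOC102634401, between Hoxd1 and Hoxd3, fell by 0.49 ± 0.12, although both of these genes had means above 0, and Gm53, between Hoxb9 and Hoxb13, fell by 0.17 ± 0.11, a call that was lost without array 2 or 3 (adjusted p = 0.0955 and 0.117). The flanking genes Skap1 (0.48 ± 0.15), Skap2 (0.34 ± 0.09) and Snx10 (0.25 ± 0.14) rose and Cbx5, a heterochromatin protein, fell by 0.22 ± 0.04. The other 13 tested flanking genes stood between -0.13 and 0.10.

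For the genes that work with HOX proteins or control them, the share past the test in either direction was 44.4% of the TALE list, 62.5% of the Cdx and retinoic acid list, 27.3% of the Polycomb list and 25% of the Trithorax list, beside 33.1% of all genes tested, so the last pair lay below the share of all genes. Among 9 TALE homeodomain cofactors, which bind DNA together with HOX proteins, Meis2 (0.38 ± 0.22), Meis1 (0.33 ± 0.21), Pknox2 (0.21 ± 0.02) and Pbx3 (0.19 ± 0.15) rose and 0 fell, with the call of Pbx3 lost without array 1 (adjusted p = 0.0654). Of 8 tested genes of the Cdx and retinoic acid list, Aldh1a2, which makes retinoic acid, rose by 0.63 ± 0.11 and the receptor gene Rara by 0.30 ± 0.13. Cyp26a1, which degrades retinoic acid, fell by 0.73 ± 0.24 at dim signals (means of 29.2 in control and 9.82 in treated channels), Rarb by 0.38 ± 0.13 and Rarg by 0.28 ± 0.08. Cdx2 and Cdx4 were not well above background and were not tested, and Cdx1 was dim and stood at 0.03 ± 0.11. Of 11 Polycomb genes, whose products keep HOX clusters silent, Ezh2 (-0.29 ± 0.06), Cbx2 (-0.28 ± 0.17) and Bmi1 (-0.27 ± 0.09) fell and 0 rose, and Cbx2 lost its call without array 3 (adjusted p = 0.0639). Of 8 Trithorax and H3K27 demethylase genes, which counter Polycomb, Kdm6b (0.20 ± 0.13) and Kmt2b (0.19 ± 0.12) rose narrowly (adjusted p = 0.0422 and 0.0346) and 0 fell. The call of Kmt2b was lost without array 1 or 4 (adjusted p = 0.14 and 0.125) and that of Kdm6b without array 1, 2 or 4 (adjusted p = 0.152, 0.0806 and 0.0904).

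Among partners in known HOX programmes some values lay outside the range of the HOX genes. The share past the test in either direction was 83.3% of the HOX11 list and 87.5% of the HOX13 list, beside 33.1% of all genes tested. Of 6 genes that act with the HOX11 paralogues in the kidney, 4 rose, among them Six2 (1.14 ± 0.27), Itga8 (0.64 ± 0.12) and Eya1 (0.17 ± 0.23), and Gdnf fell by 0.16 ± 0.18 (adjusted p = 0.0368), a call that was lost without array 2, 3 or 4 (adjusted p = 0.108, 0.166 and 0.0833). That of Eya1 was lost without array 1 or 4 (adjusted p = 0.0964 and 0.0921). Of 8 genes that act beside the HOX13 paralogues in limb, tail and genitalia, the signal Bmp4 fell by 1.31 ± 0.12, Tbx4 by 0.72 ± 0.35, Tbx5 by 0.62 ± 0.08 and Grem1 by 0.42 ± 0.10. Shh (0.54 ± 0.09), Fgf10 (0.33 ± 0.29) and Hand2 (0.27 ± 0.17) rose, with Fgf10 losing its call without array 1 or 2 (adjusted p = 0.0953 and 0.0603) and Hand2 without array 1 (adjusted p = 0.0521). In both lists genes moved in either direction.

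Markers of several cell types passed the test as well, in short lists of 4 to 7 genes. The share past the test in either direction was 100% for epithelium and for nephron progenitors and 66.7% for endothelium. It was 50% for blood, macrophages and neural crest and 42.9% for ureteric mesenchyme, beside 33.1% of all genes tested. All 7 epithelial markers rose, by 0.24 to 0.34 with a median of 0.30 and array medians of 0.22, 0.39, 0.41 and 0.29. Arrays 2 and 3 thus lay close together, and single markers differed: Krt19 was highest on array 3 (0.60) and Cdh1 lowest there (0.25). The summed signal of the 7 markers lay between 40882 and 54041 in control and between 46388 and 67147 in treated channels, higher on 4 of 4 arrays. Of 7 markers of nephron progenitors and renal mesenchyme, 2 of which (Six2 and Eya1) are also in the HOX11 list, 6 rose and Crym fell by 0.96 ± 0.45; their sum lay between 13447 and 18014 in control and between 16454 and 21633 in treated channels. Of 6 endothelial markers 4 rose, of 6 blood markers 3, and of 4 macrophage markers 2, and 0 of these fell. Their sums were 11949 to 16825, 33420 to 53016 and 2073 to 3303 in control and 13520 to 19284, 44210 to 64486 and 2427 to 3709 in treated channels. Among 6 neural crest markers 2 rose, Ret (0.28 ± 0.09) among them, and Ednrb fell by 1.38 ± 0.29. The sums of this list were 12348 to 18043 in control and 11015 to 17024 in treated channels, lower on 4 of 4 arrays. Ednrb weighed heavily in them, at 5321, 4992, 6457 and 5986 in control and 2259, 1731, 2008 and 2844 in treated channels. The median log2 ratio of the neural crest list was 0.15, so the lower sum does not describe the list as a whole. Among 7 markers of ureteric mesenchyme Twist1 (0.85 ± 0.08) and Pdgfrb (0.80 ± 0.07) rose while Tbx18 fell by 0.74 ± 0.26 (sums of 85757 to 118149 in control and 93719 to 121798 in treated channels). Single calls among these markers were lost when an array was left out: Krt19 without array 2 or 3, Cldn4 and Osr1 without array 3, Cited1 without array 1, 2 or 3, Pecam1 without array 3 or 4, Kdr without array 2, 3 or 4 and Aif1 without array 1 or 2. No marker was at 0 in either group.

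Per the study's methods the ureters were clipped where they meet the kidney and just above the bladder, and were inspected by eye to exclude other tissue. HOX13 genes are known to be active at the bladder end. Uroplakin genes mark urothelium. The study uses UPK1B and UPK2 as markers in the ureter itself, where it describes their activation at later stages than that of these explants. Whether they separate bladder from ureter at this stage was not tested. The 4 uroplakin genes stood at medians of 0.38, 0.01, 1.51 and -0.50 on arrays 1 to 4, with none past the test (SD of these medians 0.85). Hoxb13, not tested, had log2 ratios of 0.04, 0.04, 1.35 and -1.11. Signals were dim in part, with processed values of 5.27 to 142 for Upk2 and 0.797 to 34.5 for Hoxb13. Both were highest on array 3 and lowest on array 4, where Hoxa13 stood at -0.59 and -0.44, Hoxd12 at -0.49 and -0.64 and Hoxd13 at -0.55 and -0.49. The part of unequal amounts of bladder tissue, kidney tissue or urothelium in these values was not tested. In whole explants fewer cells of a type and less RNA per cell cannot be told apart, and the part of the epithelial and other markers in the rises of the HOX genes was not tested.

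**Figure D5:**
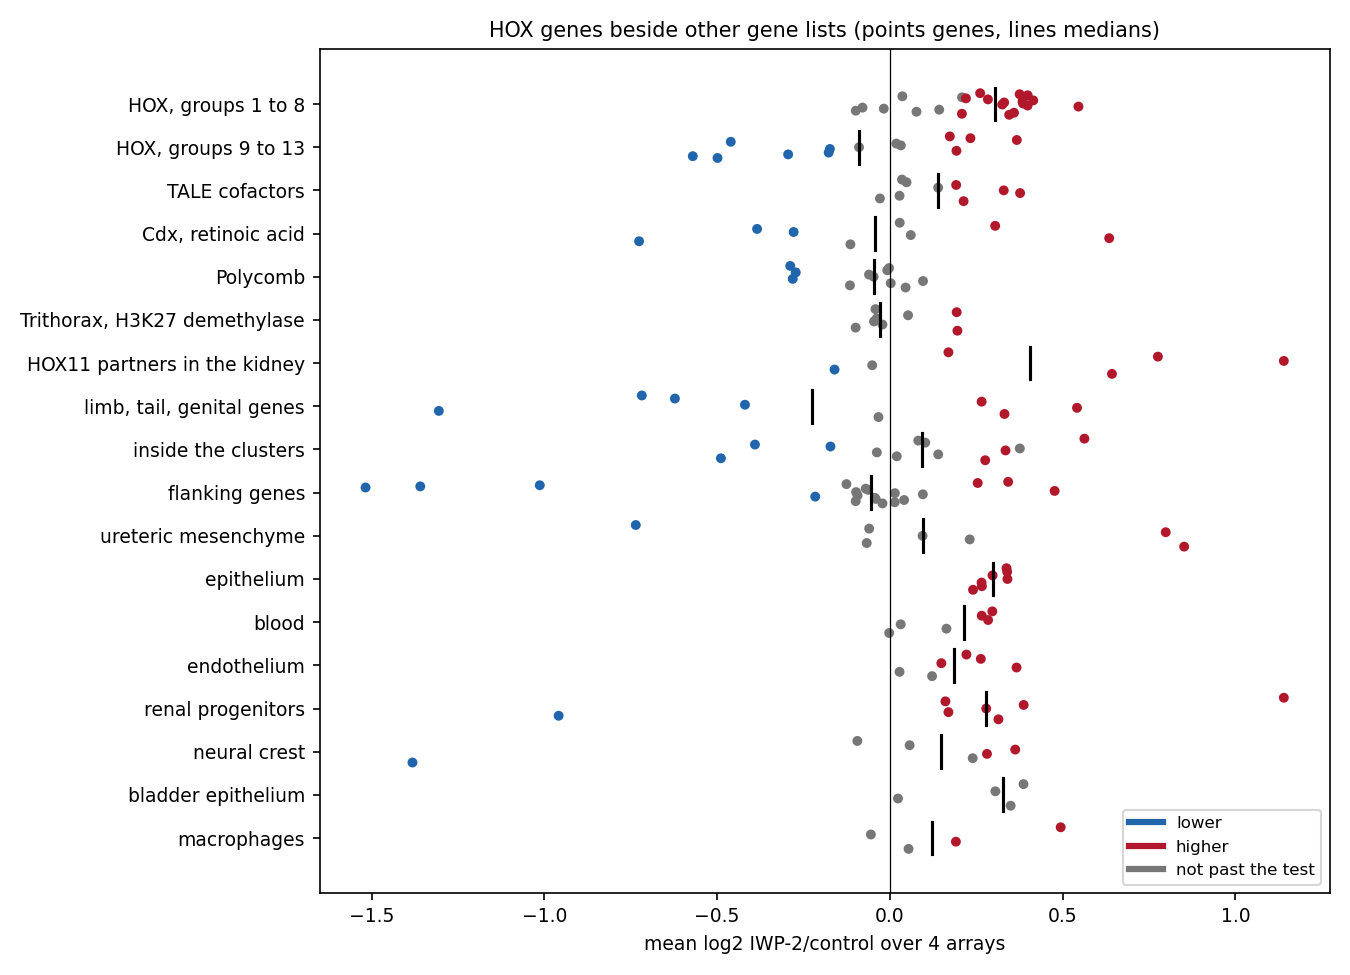
Mean log2 ratio of IWP-2 over control for each tested gene (points, coloured by call) and list median (lines) for HOX groups 1 to 8 and 9 to 13 beside the lists of cofactors, regulators, partners, neighbouring transcripts and cell type markers. HOX groups 1 to 8 have a median of 0.30, and groups 9 to 13 spread from -0.57 to 0.37.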

How the data were processed

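Expression was measured on 4 two-colour arrays of E12.5 ureter explants. The authors scanned them with Agilent Feature Extraction 10.7.3.1, and the deposited files give a raw mean intensity and local background intensity per spot and channel, a processed intensity (background-subtracted and dye-normalised) and a log10 ratio, used only to check direction. The authors' series table holds signed fold changes (named score here), rounded to 1 decimal, and served as an alternative. Flags for spots well above background are scores of 0 or 1 in the deposited files.

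Raw intensities were corrected with normexp (offset 50) and loess (span 0.3) in limma 3.58.1 (R 4.3.3), without control spots and without spots that Feature Extraction marked as outliers (3.01% to 3.38%). The offset draws ratios of dim probes towards 0. No spot was saturated. Median raw intensities were 368 to 711 in control and 385 to 694 in treated channels, and the number of arrays limits the precision. A probe was tested if over 0.5 of its 4 spots were well above background in control on all 4 arrays or in treated ureters on all 4 arrays; the brightest probe stood for a gene. limma (lmFit, eBayes) was fitted on treatment direction and a dye term, which leaves the pairing of the channels on an array in the ratio, with Benjamini-Hochberg adjustment over 22461 genes. In simulated data with the spread of these arrays, 68 of 22461 genes were changed by 0.25, 66 by 0.5 and 66 by 1 (log2). Of these, 77.9%, 100% and 100% were recovered, with 17 false calls. Far more genes, 33.1%, were called in the data themselves, so these 17 do not give the number of false calls there.

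Differences between genes were tested with the exact sign-flip permutation test over arrays, two-sided. Probe positions are those of the files (mm9), and the promoters those of RefSeq (GRCm38.p6). Members and the genes of other lists past the test are named with their values, except that some genes enter the counts and medians and are not reported by name here. Axin2 was added as a check. Members and lists were chosen with earlier results of these data known. The longest run of bases that a HOX probe shares with a probe of another gene was under 25. Alternatives were other normalisations, filters, probe choices, models and the omission of each array.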

Additional observations from a re-analysis of the deposited data

How the results depend on the processing

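With 13 alternatives for 32 of the HOX genes and 12 for the dim Hoxa4, Hoxc5 and Hoxc8, 404 of 452 pairs of gene and alternative kept direction and side of the threshold, 47 lost the call, 1 gained it (Hoxa5 without array 3) and 0 reversed. Genes past the test under all alternatives run included Hoxa13 and Hoxd12 (lower) and Hoxa7, Hoxa11, Hoxb4, Hoxb6, Hoxb7, Hoxb8, Hoxd3 and Hoxd8 (higher). The 6 lower and 19 higher calls became 3 and 11 with the series table of fold changes, whose values are rounded to 1 decimal; there Hoxd13 had an adjusted p of 0.0552. Leaving out single arrays gave 3 to 5 lower and 15 to 19 higher calls (3 lower without array 3), and the median of the HOX genes lay between 0.18 and 0.22. Treating the 8 channels as separate samples, without the array as a replicate block, gave 4 lower and 16 higher calls; Hoxa6, Hoxa9, Hoxc11, Hoxd9 and Hoxd10 lost theirs. With median centring Hoxd4 lost its call (0.14). Under a processed signal over 100 the flanking genes had 2 lower calls, since Hottip and 5730457N03Rik are dimmer than that. A block for slide or scan was not run, since all 4 arrays share 1 slide. Dim signals limit Hoxc5, Hoxc8 and Hoxa4. Among the other lists, the 2 Trithorax calls became 0 with median centring, processed signals, the series table or no replicate block, and the 1 lower call of the HOX11 list (Gdnf) became 0 with median centring, no dye term, processed signals or the series table. With the series table the flanking genes had 8 lower calls and 1 higher call in place of 4 and 3, and the TALE cofactors 2 higher calls in place of 4.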

Other observations

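Array 3 held the lowest log2 ratio of 16 of the 35 tested HOX genes and of 12 of the 22 in groups 1 to 8, against 2, 10 and 7 of the 35 on arrays 1, 2 and 4. Hoxb3 (0.05), Hoxa5 (-0.26), Hoxd1 (-0.25) and Hoxc4 (-0.32) stood lowest there. These counts were read after the values had been seen. They were not made over all genes tested, so they do not show a trait of the HOX genes in particular.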
